A study of Mus musculus with 2 samples.

Results

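Follicular B cells are the resting, recirculating B cells of the spleen, and they were followed here in 2 spleen libraries of single-cell RNA sequencing. Members were chosen by measured values, their raw UMIs (unique molecular identifiers, each standing for 1 captured RNA molecule), so the genes of the rule are no findings here. A cell needed at least 1000 UMIs with at most 10% on mitochondrial genes, at least 3 UMIs of Cd79a, Cd79b and Ms4a1 together, and no UMI of Cd3d, Cd3e or Cd3g. It needed at least 1 UMI each of Fcer2a (CD23) and Ighd (the IgD heavy chain). It could hold at most 1 UMI of the marginal zone genes Myof, S1pr3, Fcrl5, Tm6sf1 and Cd9, at most 1 of the immature genes Cd93, Akap12, Sox4 and Cecr2, at most 2 of Myc and Il4i1, and fewer than 3 of Jchain. This left 3117 follicular cells of 11185 barcodes in the ALLO library and 2921 of 17777 in the SYN library, 6038 of 28962 in all.

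The ALLO library came from the spleen of wild-type C57BL/6 animals that had received tail skin of C57BL/6-Tg(HLAA2.1)1Enge/J mice, which carry a human HLA-A2.1 transgene, at weeks 0 and 5. For the SYN library, animals of the same strain and genotype had wild-type C57BL/6 skin grafted by the same procedure. All animals were anaesthetised with tiletamine and zolazepam plus xylazine for grafting, and spleens were taken 4 weeks after the second graft. Splenocytes were frozen, thawed and passed over a dead cell removal column before capture with 10x 5′ chemistry. Each group was 1 library, and the number, age and sex of the animals behind it were not stated in the labels. No test between groups was therefore possible. Intervals below are exact 95% intervals that cover counting error only, and a gene is called higher or lower when its ratio passes 1.5-fold.

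Follicular B cells enter the B cell follicles under the chemokine receptor CXCR5, wait there in a quiescent state, and leave again through blood and lymph. They carry IgM and IgD of 1 specificity, present antigen on MHC class II, and depend on the survival factor BAFF. When antigen engages the B cell receptor, immediate early transcription factors and NF-kB targets are induced within minutes to hours, and contact with helper T cells can start a germinal centre. Marginal zone B cells, the other large resident B cell class of the mouse spleen, stay at the edge of the blood sinus and respond faster to blood-borne antigen.

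The follicular cells held 10571098 UMIs in ALLO and 9573526 in SYN, with a median of 3121 UMIs and 1335 genes per cell in ALLO and 3026 UMIs and 1346 genes in SYN. Median shares of mitochondrial UMIs were 1.98% in ALLO and 1.85% in SYN, and those of ribosomal protein UMIs 25.3% and 24.7%. Cells under 10% ribosomal protein UMIs, a sign of a nucleus or a damaged cell, numbered 39 in ALLO and 25 in SYN. The libraries shared 264 barcodes, and 11 of these were follicular cells in both. No doublet caller was run. Follicular cells with 2 or more UMIs of T cell, NK cell, myeloid, neutrophil or erythroid marker genes numbered 95 in ALLO (3.05%) and 131 in SYN (4.48%).

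The label was checked on B cell genes and on genes of other classes. Fcer2a stood at 782 CPM (UMIs scaled to a summed total of 1000000) in ALLO and 782 CPM in SYN, and Ighd at 722 CPM in ALLO and 732 CPM in SYN. Each was required in every cell, whereas T cells, which should lack them, had a Fcer2a UMI in 2.56% of cells in ALLO and 1.67% in SYN, and an Ighd UMI in 4.45% and 4.57%. T cells were the deeper class, with a median of 4224.5 UMIs in ALLO and 4139 in SYN. Summed marker levels of other lineages were low but unequal: T cell markers other than CD3 reached 40.6 CPM in ALLO and 50.5 CPM in SYN, against 4243 and 4288 CPM in T cells. NK markers summed to 19.9 CPM in ALLO and 44.1 CPM in SYN. Myeloid markers summed to 6.34 and 33.2 CPM and neutrophil markers to 7.95 and 94.6 CPM, in ALLO and SYN in this order. Erythroid markers summed to 35.9 CPM in ALLO and 24.9 CPM in SYN, and those of platelets to 0.378 and 0.313 CPM. The 8 dendritic cell markers summed to 272 CPM in ALLO and 313 CPM in SYN, of which Cst3 (cystatin C) made up 267 and 309 CPM, against a sum of 113 and 130 CPM in T cells. Of the 11 myeloid markers 4 were at 0 in ALLO and 2 in SYN, among them C1qb in both. Of the 9 neutrophil markers 2 were at 0 in ALLO, Ly6g and Mmp8, and none in SYN. The part of such other cells in the results below was not tested, except where values without them are given.

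The 9 plasma cell genes summed to 490 CPM in ALLO and 514 CPM in SYN, most of it from Mzb1, a chaperone of antibody assembly, at 291 and 300 CPM, and Txndc5, a disulfide isomerase, at 133 and 148 CPM. Prdm1, the plasma cell factor, stood at 1.42 CPM in ALLO and 1.04 CPM in SYN. Tnfrsf17, a receptor of plasma cells, and Rag1 and Dntt of immature B cells had no UMI in either library.

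The limits of the rule cut through graded levels. Cells that met every limit but had no Fcer2a UMI numbered 936 in ALLO and 921 in SYN. Just inside, members with exactly 1 Fcer2a UMI numbered 1018 and 1015. Cd55, decay-accelerating factor against complement, was at 571 CPM just inside and 531 CPM just outside in ALLO, and at 544 and 556 CPM in SYN. At the marginal zone limit, members with 1 UMI of those genes had 371 CPM of Cr2 (complement receptor CD21) in ALLO and 320 CPM in SYN. Cells with 2 such UMIs, just outside, had 399 CPM of Cr2 in ALLO and 429 CPM in SYN. Members with none of them had 270 CPM of Cr2 in ALLO and 271 CPM in SYN. Cr2 was higher at each step towards the marginal zone genes in both libraries.

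Follicular cells were set beside the other B cells of the same library as a description, since the rule chose them from these cells. Of 10082 genes described, 23 were past 1.5-fold higher than in all other B cells in both libraries (0.228%) and 289 past 1.5-fold lower (2.87%). The highest by the near bound of the interval was Rflnb (refilin B, an actin-bundling partner of filamin), at 45.2 CPM in follicular and 24.8 CPM in other B cells of ALLO, and at 72.6 and 46.4 CPM in SYN. Pxdc1 had 194 CPM against 141 CPM in ALLO and 184 against 126 CPM in SYN. Hvcn1, the voltage-gated proton channel that tunes B cell receptor signals, had 378 against 288 CPM in ALLO and 441 against 331 CPM in SYN. Zfp318, which lets the long IgM and IgD transcript be read through to IgD, had 214 against 162 CPM in ALLO and 277 against 202 CPM in SYN. Genes of dividing cells made up most of the lowest genes. Mki67 had 2.65 CPM in follicular and 24.6 CPM in other B cells of ALLO, and 3.66 and 29.1 CPM in SYN. Birc5 (survivin) had 0.662 against 10.4 CPM in ALLO and 0.313 against 10.6 CPM in SYN. Asb2, a ubiquitin ligase subunit, was the one of the 12 lowest outside the cell cycle, at 0.851 against 10.1 CPM in ALLO and 0.836 against 7.82 CPM in SYN.

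Marginal-zone-rule cells were B cells with 2 or more UMIs of the marginal zone genes, 887 cells in ALLO and 822 in SYN. These were deeper, with medians of 5257 and 4812.5 UMIs. Of them 7.33% in ALLO and 9.37% in SYN held 2 or more UMIs of another lineage's markers, above the follicular shares. Erythroid markers alone were in a smaller share, 0.789% and 0.730%. NK markers summed to 193 CPM in ALLO and 322 CPM in SYN, and neutrophil markers to 5.82 and 1386 CPM. The part of such other cells in the comparison was not tested. Among 9472 genes described, 225 were higher in follicular cells in both libraries (2.38%) and 401 lower (4.23%). Cd55 had 592 CPM in follicular and 280 CPM in marginal-zone-rule cells of ALLO, and 581 and 274 CPM in SYN. Its ratio was 2.11 in ALLO and 2.12 (1.99 to 2.26) in SYN. Cxcr4, the receptor for CXCL12, had 108 against 49.6 CPM in ALLO and 120 against 59.1 CPM in SYN. Bach2, the repressor that holds B cells back from the plasma cell fate, had 285 against 151 CPM in ALLO and 313 against 160 CPM in SYN. Tsc22d3 (GILZ, a glucocorticoid-induced leucine zipper) had 745 against 392 CPM in ALLO and 816 against 439 CPM in SYN. Among the 12 highest by the near bound, the largest ratio belonged to Cdkl1, a kinase. It stood at 12.2 against 3.38 CPM in ALLO and 13.2 against 3.09 CPM in SYN. The ranking took only genes that both libraries placed on the same side, so this agreement is no finding. For each of the 12 highest the follicular values of ALLO and SYN lay above both marginal-zone-rule values.

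**Figure D1:**
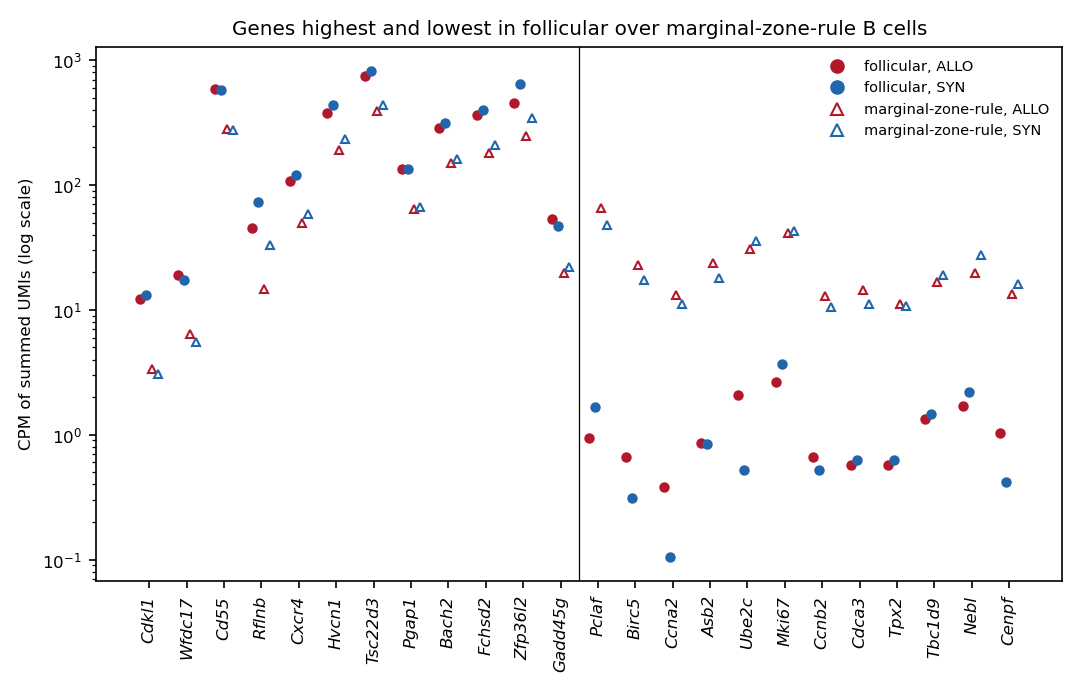
Level of the 12 highest and 12 lowest genes in follicular over marginal-zone-rule B cells, as CPM of summed UMIs on a log axis; filled circles are follicular cells, open triangles marginal-zone-rule cells, red ALLO and blue SYN. For Cd55 the circles sit at 592 and 581 CPM and the triangles at 280 and 274 CPM. Right of the line the order is inverted for every gene, and the ranking took only genes on the same side in both libraries.

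Gene lists described the same contrast. Of 20 homing and egress genes 9 were higher in follicular than in marginal-zone-rule cells in both libraries and 1 was lower (median log2 ratio 0.47 in ALLO and 0.42 in SYN, against 0.03 and 0.01 over all genes). Ccr7, the receptor for T zone chemokines, was 1.87-fold higher in ALLO and 1.58-fold in SYN. S1pr4, a sphingosine 1-phosphate receptor, was 1.86-fold higher in each library. Itgb1 was lower, at a ratio of 0.456 in ALLO and 0.415 in SYN. Cxcr5 itself had ratios of 1.18 and 0.978. Of 14 follicular genes outside the rule 6 were higher in both libraries and none lower, and of 11 marginal zone genes outside the rule 9 were lower and none higher. Plac8 had ratios of 0.292 in ALLO and 0.257 in SYN, Cd36 (a scavenger receptor) 0.231 and 0.209, and Cr2 0.528 and 0.512. Notch2, which drives marginal zone fate, was an exception at 1.12 and 1.32. All 11 MHC class II genes were above 1 in both libraries, and 2 passed 1.5-fold, H2-Ob at 1.67 and 1.59 and H2-DMb1 at 1.52 and 1.65. Growth genes went the other way, with 5 of 21 Myc target and ribosome-making genes lower in both libraries (median log2 ratio -0.51 in ALLO and -0.59 in SYN). The rule capped Myc with Il4i1 at 2 UMIs in follicular cells, and marginal-zone-rule cells had no such cap. Myc stood at 59.1 CPM in follicular and 208 CPM in marginal-zone-rule cells of ALLO, and at 38.3 and 184 CPM in SYN. Lower Myc targets are thus no finding independent of the rule, and the part of the cap was not tested. All 10 markers of dividing cells that were described were lower too (median -3.92 in ALLO and -3.12 in SYN), and their part in the growth genes was not tested. Of 10 B1 and memory genes 7 were lower in both, among them S100a6 at 0.316 in ALLO and 0.291 in SYN. For these genes and Itgb1, the part of other cell types among the marginal-zone-rule cells was not tested.

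Transitional-rule B cells numbered 227 in ALLO and 270 in SYN. Of 8967 genes 225 were higher in follicular cells in both libraries (2.51%) and 296 lower (3.3%). Ccr6, a chemokine receptor of mature B cells, had 85.6 CPM in follicular and 25.2 CPM in transitional-rule cells of ALLO, and 76.4 and 21.5 CPM in SYN. Fxyd5, an ion pump subunit, had 160 against 55.7 CPM in ALLO and 160 against 48.8 CPM in SYN. The lowest were again genes of dividing cells, with Mki67 at 2.65 CPM in follicular and 76.7 CPM in transitional-rule cells of ALLO, and 3.66 and 69.3 CPM in SYN, and Top2a at 6.43 against 60.9 CPM in ALLO and 5.95 against 43.0 CPM in SYN. Lef1, a Wnt pathway factor of immature lymphocytes, was also lower, at 6.43 against 34.7 CPM in ALLO and 8.98 against 38.1 CPM in SYN. Rgs1, a brake on chemokine receptors, had 21.9 against 94.5 CPM in ALLO and 14.5 against 56.6 CPM in SYN.

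Against activated-rule B cells with 3 or more UMIs of Myc and Il4i1 (402 in ALLO and 277 in SYN), 253 of 8999 genes were higher in follicular cells in both libraries (2.81%) and 335 lower (3.72%). Srm, spermidine synthase, had 32.5 CPM in follicular and 134 CPM in activated-rule cells of ALLO, and 33.9 and 139 CPM in SYN. Ccnd2, cyclin D2, had 28.9 against 88.6 CPM in ALLO and 24.3 against 109 CPM in SYN. S1pr4 was higher, at 98.4 against 55.9 CPM in ALLO and 114 against 61.4 CPM in SYN. The remaining B cells, without a Fcer2a or Ighd UMI, differed in the fewest genes. In both libraries 8 of 9515 genes were higher in follicular cells (0.0841%) and 43 lower (0.452%), and their median depth was 2795 UMIs in ALLO and 2586 in SYN. Plac8 had 272 CPM in follicular and 388 CPM in these cells of ALLO, and 229 and 338 CPM in SYN.

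The share of follicular cells was compared between the grafts. They made up 45.2% (44.0 to 46.4) of 6895 ALLO B cells and 43.4% (42.2 to 44.6) of 6732 SYN B cells, and the interval of their ratio of 1.04 (0.990 to 1.10) included 1. Of all kept barcodes they were 31.8% in ALLO and 26.1% in SYN (ratio 1.22, 1.16 to 1.28). B cells as a whole were 70.4% of kept barcodes in ALLO and 60.1% in SYN. Excluding barcodes with a CD3 UMI took those with at least 3 B gene UMIs from 7414 to 6929 in ALLO. In SYN it took them from 7942 to 6764, a larger loss, and its part in these shares was not tested. Activated-rule cells were 5.83% of B cells in ALLO and 4.11% in SYN (ratio 1.42, 1.21 to 1.66), and marginal-zone-rule cells 12.9% and 12.2%. Since shares add to 1, cells lost in freezing, thawing or on the column cannot be told apart from cells absent in the spleen.

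Between grafts, follicular cells were alike in most genes and differed in a small set that included inducible chaperones, stress genes and sterol genes. Among 9869 genes with at least 50 UMIs over both libraries, 152 were higher in ALLO (1.54%) and 181 lower (1.83%), with a median log2 ratio of -0.06 and 3613 ratios above 1. By the near bound of the interval 27 were past 1.5-fold higher and 34 lower. Of 5090 genes with at least 500 UMIs, 17 were higher and 21 lower. Of 191 immunoglobulin segments described, 17 were among the 152 higher and 37 among the 181 lower genes. Of 597 predicted genes 39 were higher and 14 lower, and of 9081 other genes 96 and 130. For their number, immunoglobulin segments passed the limit most often of these kinds in either direction. In marginal-zone-rule cells 1.71% of genes were higher in ALLO and 3.53% lower, and in T cells 3.62% and 1.8%.

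**Figure D2:**
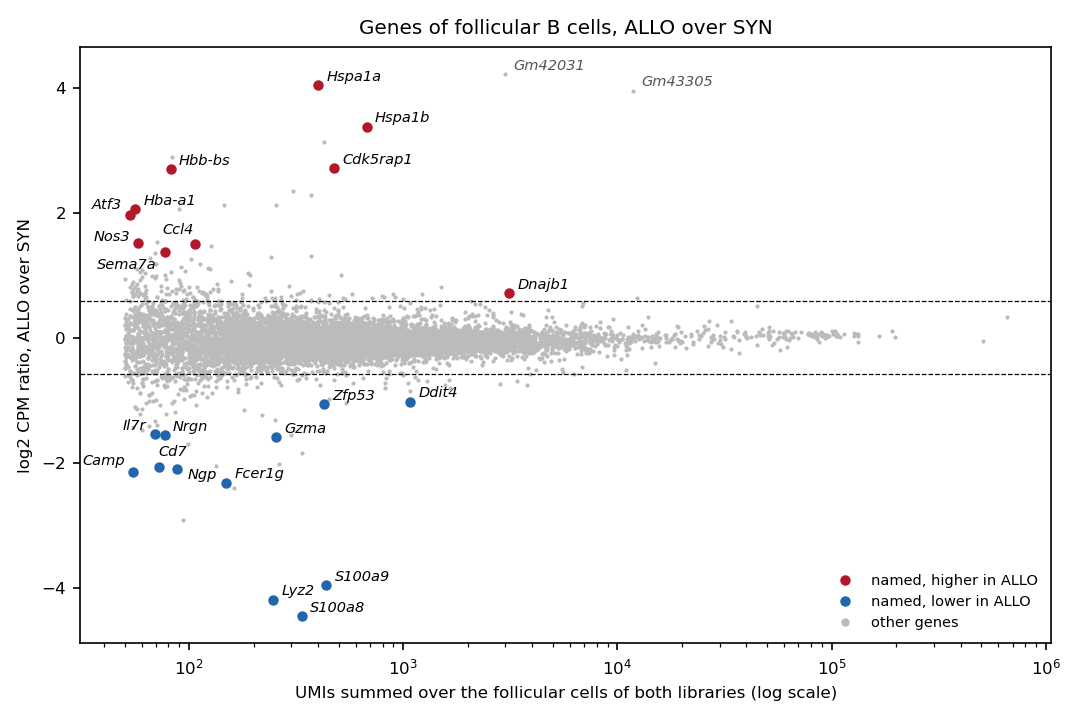
Every gene described in follicular cells, with the UMIs of both libraries on a log x axis and the log2 CPM ratio of ALLO over SYN on the y axis; dashed lines mark 1.5-fold, red and blue points the genes named by rule. Hspa1a, Hspa1b and Cdk5rap1 stand highest among the named genes and S100a8, S100a9 and Lyz2 lowest. Slc15a2, at 0 UMIs in SYN, is not drawn.

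Heat shock chaperones refold damaged proteins and are induced by heat and other stress. Hspa1a, inducible Hsp70, had 381 UMIs in ALLO (36.0 CPM) and 21 in SYN (2.19 CPM), which is 16.4-fold higher (10.6 to 26.9). Its neighbour and near-identical copy Hspa1b had 621 UMIs in ALLO (58.7 CPM) and 54 in SYN (5.64 CPM), 10.4-fold higher (7.88 to 14.0), and reads may be split uncertainly between the pair. ALLO was the higher library for both genes. These UMIs lay in 173 ALLO and 20 SYN cells for Hspa1a, and in 299 and 29 cells for Hspa1b. Dnajb1, the Hsp40 partner of Hsp70, had 189 CPM in ALLO and 116 CPM in SYN (ratio 1.63, 1.52 to 1.76), and Hsph1, an Hsp70 exchange factor, 48.0 and 30.1 CPM (1.59, 1.38 to 1.85). In total 4 of 13 heat shock genes were higher in ALLO and none lower, with a list median log2 ratio of 0.21. Hspa8, the constitutive Hsp70, had 945 CPM in ALLO and 1002 CPM in SYN, and Hsf1, the regulator of the response, 48.4 and 51.0 CPM. The Hsp70 pair was also higher in the ALLO T cells, Hspa1a at 7.37-fold (5.49 to 10.1) and Hspa1b at 6.24-fold (5.08 to 7.72). Dnajb1 in T cells had a ratio of 1.05 (0.967 to 1.14). The list had 3 of 13 members higher in marginal-zone-rule cells (median 0.182) and 3 of 13 in B cells without Fcer2a or Ighd (0.167). In T cells it had 2 of 13 (-0.007), and none was lower in these classes. Freezing and thawing were done for both libraries, and the part of handling in these values was not tested.

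Immediate early genes are switched on without new protein by receptor signals, and also during dissociation of tissue. Of 23 described, 5 were higher in ALLO, none lower, and 18 had ratios above 1 (median log2 ratio 0.17). Atf3, a stress-induced factor, had 43 UMIs in ALLO and 10 in SYN (ratio 3.89, 1.93 to 8.69). Egr3, a target of calcium and antigen receptor signals, had 54.6 CPM in ALLO and 33.5 CPM in SYN (1.63, 1.42 to 1.87). Egr2 had 6.81 and 4.07 CPM, Nr4a3 10.7 and 6.58 CPM, and Nr4a2 15.0 and 9.71 CPM, in ALLO and SYN in this order. Nr4a2 was inside the limit, at 1.48 (1.11 to 1.98), without members in the top 5% of UMIs or with 2 or more UMIs of another lineage's markers. Nr4a1, which reports antigen receptor engagement in mouse B cells, stayed under the limit at 63.3 CPM in ALLO and 42.9 CPM in SYN (1.47, 1.30 to 1.67). The abundant members were nearer to 1, with Fos at 1450 CPM in ALLO and 1208 CPM in SYN and Jun at 1276 and 1213 CPM (ratio 1.05). In T cells the list had 2 of 22 members higher, none lower and a median of -0.08. In B cells without Fcer2a or Ighd 2 of 23 were higher (median 0.144) and in marginal-zone-rule cells 3 of 23 (0.120), none lower. Myc, which the rule capped at 2 UMIs with Il4i1, stood at 59.1 CPM in ALLO and 38.3 CPM in SYN.

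Genes below the B cell receptor were set beside all genes, of which 1.54% were higher and 1.83% lower. A count of 0 in a short list is near these shares and does not set the list apart. None of 22 signalling genes passed 1.5-fold in either direction (median log2 ratio -0.10), with Syk, the proximal kinase, at 345 CPM in ALLO and 360 CPM in SYN. Of 11 inhibitory receptors and phosphatases only Ptpn22, a phosphatase that restrains antigen receptor kinases, was lower, at 15.3 CPM in ALLO and 30.3 CPM in SYN (0.506, 0.415 to 0.615). Its ratio in T cells was 1.01. Of this inhibitor list 1 of 11 was also lower in marginal-zone-rule cells and 1 of 11 in B cells without Fcer2a or Ighd, none higher. None of 15 NF-kB subunits and feedback genes passed. Nfkbid, an inducible nuclear IkB protein, came nearest at 138 CPM in ALLO and 98.3 CPM in SYN (1.40, 1.29 to 1.52). Irf4, which antigen receptor signals raise in proportion to their strength, had 126 and 87.1 CPM (1.45, 1.33 to 1.58).

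Type I interferon response genes, antiviral effectors under ISGF3, gave 5 higher and no lower of 32 described, with 26 ratios above 1 and a median log2 ratio of 0.31. Usp18, the isopeptidase that limits interferon signalling, had 8.32 CPM in ALLO and 3.86 CPM in SYN (2.15, 1.45 to 3.25). Ifit3 had 10.0 and 5.33 CPM (1.88), Ifit2 8.51 and 4.70 CPM (1.81), and Ifi27l2a 402 and 275 CPM (1.46, 1.39 to 1.54). Their summed level was 5387 CPM in ALLO and 5484 CPM in SYN (0.982, 0.971 to 0.994), so the median and the sum lay on opposite sides of no change. Ly6e, the most abundant member, had 2898 CPM in ALLO and 3231 CPM in SYN. In T cells 6 of 32 were higher, none lower, and the median was 0.18. The shift was not particular to follicular cells among B cells. In B cells without Fcer2a or Ighd 8 of 32 were higher (median 0.355) and in marginal-zone-rule cells 6 of 30 (0.268), none lower. Of 13 interferon gamma GTPases and regulators 1 was higher, Tgtp2, at 12.4 CPM in ALLO and 6.06 CPM in SYN (2.05, 1.49 to 2.84), and Irf1 had 146 and 113 CPM (1.29).

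Sterol genes answer to SREBP2 when membrane cholesterol is low. This list had the highest median of the 17 lists plotted, a log2 ratio of 0.54, with 4 of 17 genes higher in ALLO, none lower and 14 above 1. Sqle (squalene epoxidase) had 7.19 CPM in ALLO and 4.49 CPM in SYN, and Cyp51, a demethylase of lanosterol, 18.1 and 11.4 CPM. Insig1, itself a sterol-regulated brake, had a ratio of 1.49 (1.22 to 1.82). The list summed to 329 CPM in ALLO and 258 CPM in SYN (1.28, 1.21 to 1.34). In T cells 2 of 17 were higher, none lower, and the median was 0.17. In B cells without Fcer2a or Ighd 4 of 16 were higher (median 0.182) and in marginal-zone-rule cells 2 of 13 (0.187), none lower.

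**Figure D3:**
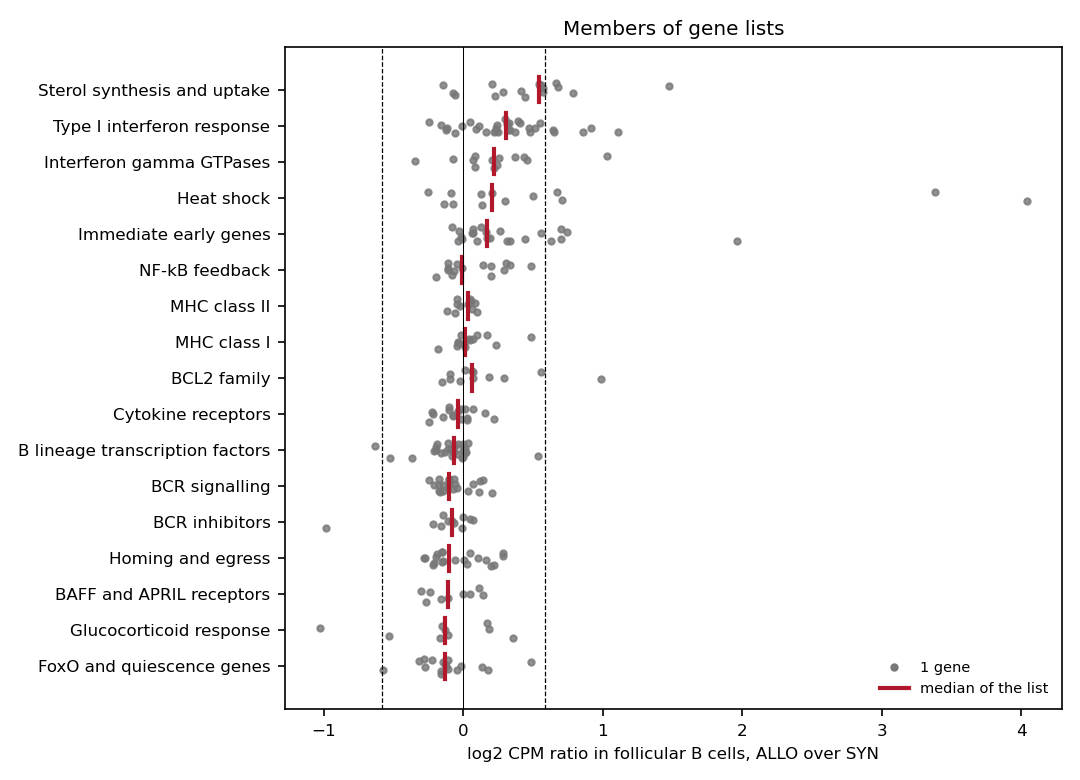
Log2 CPM ratio of ALLO over SYN in follicular cells for the described members of 17 gene lists; each point is 1 gene, the red bar the list median and the dashed lines 1.5-fold. Medians run between 0.54 for sterol genes and -0.13 for FoxO and quiescence genes.

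Functions that define the class differed little between grafts. None of 11 MHC class II genes and none of 15 MHC class I genes passed 1.5-fold. H2-Ab1 had 3677 CPM in ALLO and 3436 CPM in SYN, and Cd74, the invariant chain, 24776 and 25793 CPM. None of 9 BAFF and APRIL receptor genes passed, with Tnfrsf13c, the BAFF receptor, at 306 CPM in ALLO and 368 CPM in SYN (0.833, 0.794 to 0.874). None of 17 cytokine receptors passed, Il21r standing at 172 and 171 CPM and Il17ra at 64.6 and 75.3 CPM. None of 20 homing genes passed. Gpr183, which guides B cells to the outer follicle, had 148 CPM in ALLO and 121 CPM in SYN (1.22, 1.13 to 1.32), Ccr7 245 and 213 CPM (1.15, 1.08 to 1.22), and Cxcr5 127 and 141 CPM (0.898, 0.832 to 0.969). None of 12 costimulation genes passed, with Cd86 at 26.5 CPM in ALLO and 26.3 CPM in SYN and Icosl at 139 and 146 CPM. None of 15 Toll-like receptor genes and none of 21 growth and Myc target genes passed either.

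None of 17 FoxO and quiescence genes of the resting state passed 1.5-fold. Their median log2 ratio was -0.13 with 3 ratios above 1, beside -0.06 and 3613 of 9869 over all genes. Pik3ip1, an inhibitor of PI3 kinase, had 39.1 CPM in ALLO and 58.1 CPM in SYN (0.673, 0.591 to 0.765), and Txnip, a FoxO target that curbs glucose uptake, 435 and 528 CPM (0.825, 0.792 to 0.858). Foxo1 had 172 and 201 CPM. Klf2, a FoxO target of resting lymphocytes, was above 1, at 1366 CPM in ALLO and 1245 CPM in SYN. Ddit4 (REDD1), an inhibitor of mTORC1 induced by glucocorticoid and stress, was the 1 gene past the limit among 9 glucocorticoid response genes. It had 379 UMIs in ALLO (35.9 CPM) and 698 in SYN (72.9 CPM), at 0.492 of the SYN level (0.433 to 0.558), in 325 and 555 cells. It was lower in ALLO T cells too, at 0.617 (0.566 to 0.672), and in marginal-zone-rule cells at 0.781 (0.666 to 0.917).

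Transcription factors of B cell identity gave few calls, as did all genes (1.54% higher and 1.83% lower). Pax5 had 258 CPM in ALLO and 259 CPM in SYN, and Ebf1 833 and 832 CPM. Of 27 described only Id2 passed, at 4.92 CPM in ALLO and 7.63 CPM in SYN (0.645, 0.443 to 0.933), a factor also abundant in NK and myeloid cells, whose summed markers were lower in ALLO. Without members in the top 5% of UMIs or with 2 or more UMIs of another lineage's markers, Id2 had 35 and 44 UMIs and a ratio of 0.714 (0.444 to 1.14), inside the limit. Id3, an inhibitor of E proteins, had 170 and 245 CPM (0.695, 0.653 to 0.739), and Zfp318 214 and 277 CPM (0.774, 0.731 to 0.819). Vpreb3, a surrogate light chain relative that falls as B cells mature, had 227 CPM in ALLO and 322 CPM in SYN (0.706, 0.669 to 0.745), just inside the limit. Within the BCL2 family 1 of 12 was higher, the death activator Bbc3 (PUMA), at 4.35 CPM in ALLO and 2.19 CPM in SYN (1.98, 1.16 to 3.50), with a T cell ratio of 0.473. Bcl2 stood at 107 and 106 CPM and Mcl1 at 519 and 554 CPM.

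Some of the genes farthest apart were shifted the same way in T cells. Slc15a2, an oligopeptide transporter, had 87 UMIs in ALLO follicular cells and 0 in SYN, at least 26.3-fold higher against a floor of 3 UMIs, while the lower 95% bound of the ratio was 20.9. It had 32 UMIs in ALLO T cells and 0 in SYN T cells, at least 13.9-fold higher against the same floor, with a lower 95% bound of 10.7. Cdk5rap1, a tRNA-modifying enzyme of mitochondria, had 419 UMIs in ALLO and 58 in SYN, 6.54-fold higher (4.96 to 8.77), and 8.23-fold (5.97 to 11.6) in T cells. Zfp53, a zinc finger gene, had 148 and 279 UMIs (0.480, 0.391 to 0.588), and 0.763 (0.633 to 0.916) in T cells. Among predicted genes, named after their values were seen, Gm43305 had 11204 UMIs in ALLO and 654 in SYN (15.5-fold, 14.3 to 16.8), and Gm42031 had 2859 and 139 (18.6-fold, 15.7 to 22.2). Their T cell ratios were 21.6 and 14.7. The labels give both groups the same strain and genotype, and whether the animals differed elsewhere in the genome was not tested.

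Smaller differences in named genes rested on fewer UMIs. Sema7a, a membrane semaphorin, had 57 UMIs in ALLO and 20 in SYN (ratio 2.58, 1.53 to 4.54), against 0.961 (0.744 to 1.24) in marginal-zone-rule cells and 1.30 (0.458 to 3.70) in T cells. Nos3, a nitric oxide synthase, had 44 and 14 UMIs (2.85, 1.53 to 5.62), against 1.07 (0.379 to 3.11) in marginal-zone-rule cells and 1.67 (0.787 to 3.64) in T cells. Ccl4, a chemokine that recruits T cells and monocytes, had 81 and 26 UMIs (2.82, 1.79 to 4.57), against 1.11 (0.764 to 1.62) in marginal-zone-rule cells, 0.838 (0.481 to 1.45) in B cells without Fcer2a or Ighd and 1.76 (1.41 to 2.21) in T cells. Whether these ratios differed between the classes was not tested.

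Most of the lowest named genes belong to other cell types and rested on few cells. S100a8, a neutrophil alarmin, had 16 UMIs in ALLO and 319 in SYN (0.0454, 0.0256 to 0.0749), and 117 of the SYN UMIs were in 1 cell. Its partner S100a9 had 29 and 409 UMIs (0.0642), with 139 in 1 SYN cell. Lyz2, a lysozyme of myeloid cells, had 14 and 232 UMIs (0.0547), with 181 in 1 SYN cell. Camp and Ngp, further neutrophil granule genes, had ratios of 0.226 and 0.233, with 37 of 44 SYN UMIs of Camp and 57 of 70 of Ngp in 1 cell. Gzma, a granzyme, had 68 and 186 UMIs (0.331), with 39 in 1 ALLO cell and 45 in 1 SYN cell. Globin genes were high in ALLO in the same way, since 38 of the 72 ALLO UMIs of Hbb-bs (6.52) and 31 of the 46 of Hba-a1 (4.17) were in 1 cell. These genes belong to the marker lists themselves, so leaving out cells with marker UMIs gives no independent value for them. Fcer1g, Cd7 and Il7r, genes of NK, myeloid or T cells outside those lists, had ratios of 0.200, 0.238 and 0.344. Without the marked and deepest members their ratios were 0.555 (0.256 to 1.16), 0.425 (0.169 to 0.986) and 0.610 (0.309 to 1.18), on fewer than 50 UMIs each. Hspa1a, Hspa1b and Ddit4 had ratios of 19.6, 9.96 and 0.476 without those members.

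**Figure D4:**
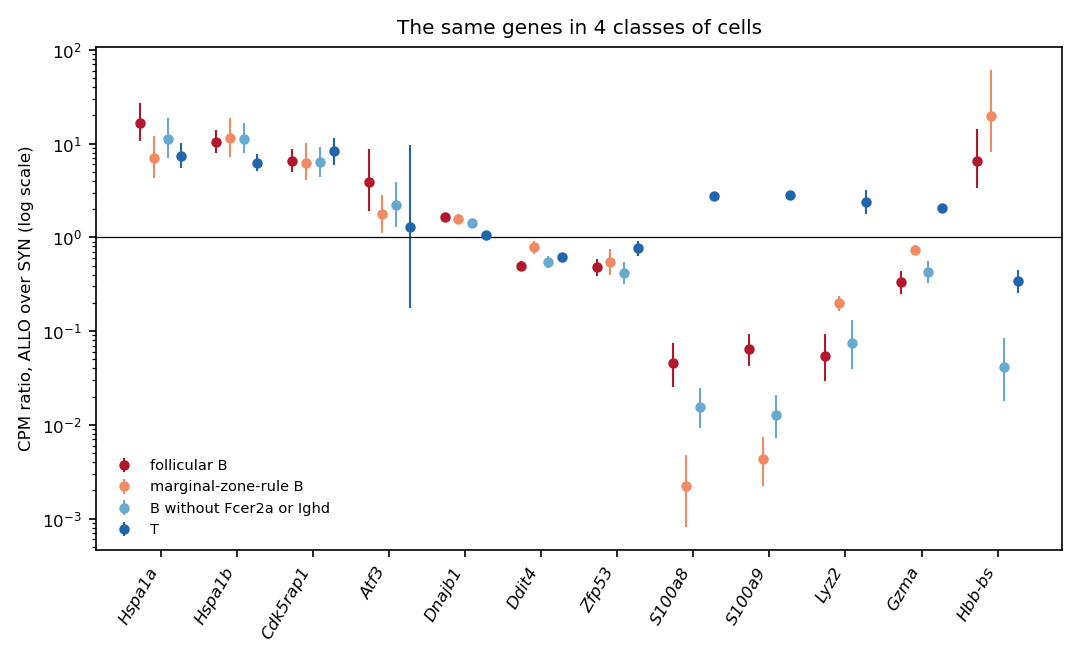
CPM ratio of ALLO over SYN on a log axis for 12 genes in follicular B cells, marginal-zone-rule B cells, B cells without Fcer2a or Ighd, and T cells; bars are exact 95% intervals for counting error. Hspa1a, Hspa1b and Cdk5rap1 lie above 1 in the 4 classes, while S100a8, S100a9, Lyz2 and Gzma lie below 1 in B cells and above 1 in T cells.

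Follicular cells were compared among themselves after each was thinned to 1000 UMIs. The Fano factor, the variance of UMIs per cell over their mean, is 1 for pure counting noise. Over 5223 genes its median was 1.02 in ALLO and 1.02 in SYN, and 61 genes reached 1.2 and 16 reached 1.5 in both libraries. Lars2, a mitochondrial leucyl-tRNA synthetase gene, spread most, with a Fano factor of 6.74 in ALLO and 4.04 in SYN, at a mean of 2.59 and 1.85 UMIs per cell. Malat1, a nuclear long noncoding RNA, followed at 4.77 in ALLO and 3.64 in SYN. Next came AY036118, a noncoding transcript, at 2.85 and 2.98, and Cd74 at 2.23 and 2.60. Junb, Jun, Jund and Fos were all among the 10 highest, with values of 2.09, 1.89, 1.84 and 1.77 in ALLO and 2.13, 2.20, 1.81 and 1.92 in SYN. Ifi27l2a was the interferon gene among them, at 1.74 in ALLO and 1.68 in SYN, and Tmsb10, a thymosin that binds actin, closed the list at 1.66 and 1.69.

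Lists summed per cell were described in the same way. Their means in ALLO were 43.8 UMIs for MHC class II, 14.7 for immediate early and 3.78 for heat shock genes. A Fano factor can rise with the mean, so its values do not rank the lists by how much they varied. Immediate early genes had a median of 14 UMIs per thinned cell in ALLO and 13 in SYN, with 5th and 95th percentiles of 3 and 28 in ALLO and of 2 and 26 in SYN. Their Fano factor was 3.76 in ALLO and 4.06 in SYN. That of MHC class II sums was 2.84 in ALLO and 3.19 in SYN, with a median of 44 UMIs in each. Type I interferon sums had 1.75 and 1.67, heat shock sums 1.40 and 1.42, and homing sums 1.42 and 1.28, in ALLO and SYN in this order. Cells of both libraries covered overlapping ranges of immediate early UMIs, and the medians lay closer together than the 5th and 95th percentiles of either library.

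**Figure D5:**
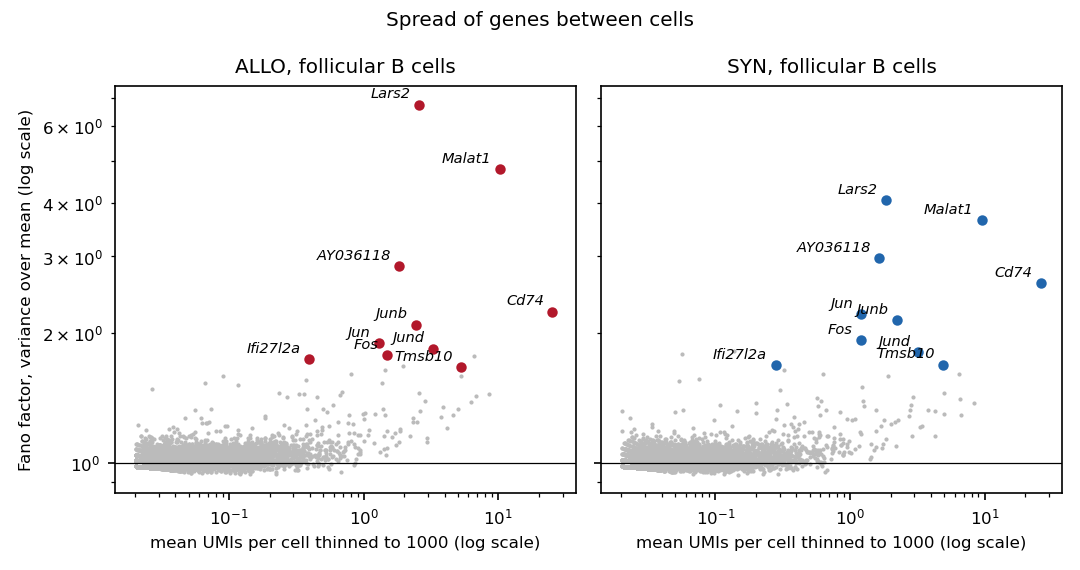
Fano factor against mean UMIs per thinned follicular cell, both on log axes, for ALLO on the left and SYN on the right; grey points are genes and coloured points the 10 most spread. Lars2 and Malat1 lie highest in both libraries, and most genes lie near the line at 1.

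The antibody genes were read as a set of chains. Of cells with an assigned heavy constant gene other than Ighd, 2169 of 2172 in ALLO (99.9%) and 1887 of 1892 in SYN (99.7%) were IgM. The rule required an Ighd UMI in every member, so this high share was largely set by the selection and is no finding. By variable segments, 141 of 2992 assigned ALLO cells carried lambda light chains, 4.71% (3.98 to 5.53), and 113 of 2832 SYN cells, 3.99% (3.30 to 4.78). Constant genes gave another answer, since in 77.3% of the ALLO and 81.1% of the SYN cells that were kappa by variable segment the lambda constant genes (Iglc) had more UMIs than Igkc. In these cells Iglc stood at 2945 CPM in ALLO and 3173 CPM in SYN and Igkc at 1420 and 1442 CPM, while Igkv segments reached 9302 and 9939 CPM and Iglv segments 141 and 155 CPM. Light chain class was taken from the variable segments. To show how alike the germline segments behind these calls are, the last 300 bases of the variable exon are given for 2 sets as GENCODE M21 annotates them on mm10, in the sense direction, with capitals at positions where the members of a set are not all the same. All 5 genes lie on the minus strand. Ighv1-26, the most used heavy segment, at chr12:114788372-114788805, and its nearest relative Ighv1-18, at chr12:114682632-114683065, differed at 8 positions.
Ighv1-26: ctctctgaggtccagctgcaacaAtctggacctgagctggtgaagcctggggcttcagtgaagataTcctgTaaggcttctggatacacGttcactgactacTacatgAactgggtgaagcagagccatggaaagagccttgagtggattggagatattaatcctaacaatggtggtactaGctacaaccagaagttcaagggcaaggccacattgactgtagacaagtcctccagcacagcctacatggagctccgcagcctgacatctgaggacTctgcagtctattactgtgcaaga
Ighv1-18: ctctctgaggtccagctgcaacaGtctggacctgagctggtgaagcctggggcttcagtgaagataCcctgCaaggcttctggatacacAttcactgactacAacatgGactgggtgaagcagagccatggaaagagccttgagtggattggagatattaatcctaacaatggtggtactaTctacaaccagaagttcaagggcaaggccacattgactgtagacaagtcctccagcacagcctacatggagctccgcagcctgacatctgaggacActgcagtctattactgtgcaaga
The 3 kappa segments that were higher in ALLO were all of the Igkv4 family, Igkv4-59 at chr6:69438218-69438757, Igkv4-55 at chr6:69607275-69607828 and Igkv4-57 at chr6:69575975-69576500, and 26 positions varied among them.
Igkv4-59: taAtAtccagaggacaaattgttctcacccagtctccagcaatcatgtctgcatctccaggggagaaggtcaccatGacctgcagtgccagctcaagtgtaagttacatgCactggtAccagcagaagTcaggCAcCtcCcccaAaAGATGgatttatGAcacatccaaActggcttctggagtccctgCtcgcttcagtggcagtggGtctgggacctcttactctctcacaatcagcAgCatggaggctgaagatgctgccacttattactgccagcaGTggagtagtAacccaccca
Igkv4-55: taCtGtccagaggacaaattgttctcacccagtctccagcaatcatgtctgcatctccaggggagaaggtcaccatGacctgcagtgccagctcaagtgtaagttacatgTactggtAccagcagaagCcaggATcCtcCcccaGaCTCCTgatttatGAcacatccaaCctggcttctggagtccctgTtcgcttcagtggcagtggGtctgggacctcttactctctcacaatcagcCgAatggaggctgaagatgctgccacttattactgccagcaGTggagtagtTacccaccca
Igkv4-57: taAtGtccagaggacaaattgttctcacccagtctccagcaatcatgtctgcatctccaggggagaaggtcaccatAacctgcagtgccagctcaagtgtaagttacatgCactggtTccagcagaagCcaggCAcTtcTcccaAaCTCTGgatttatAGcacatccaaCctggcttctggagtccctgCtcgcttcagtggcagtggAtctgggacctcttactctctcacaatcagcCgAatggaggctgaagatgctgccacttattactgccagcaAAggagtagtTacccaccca

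Segment use was broad in both libraries, and some segments differed between them. Of 2466 ALLO and 2359 SYN cells with an assigned heavy segment, 144 ALLO cells (5.84%, 4.95 to 6.84) and 160 SYN cells (6.78%, 5.80 to 7.87) used Ighv1-26. Its variable exon, shown above, shares 97.4% of positions with that of Ighv1-18, used by 78 ALLO and 71 SYN cells, and segments this close are uncertain. The 10 most used of 102 heavy segments held 34.9% of ALLO and 37.1% of SYN cells. Among 36 heavy segments with at least 50 cells, 1 was past 1.5-fold higher in ALLO, Ighv10-3, in 34 and 18 cells (1.81, 0.992 to 3.40), and none lower. Igkv10-96, the most used kappa segment, was found in 168 of 2660 ALLO cells (6.32%, 5.42 to 7.31) and 153 of 2458 SYN cells (6.22%, 5.30 to 7.25). Among 38 kappa segments with at least 50 cells, 3 were higher in ALLO and 2 lower. Igkv4-59 was used by 77 ALLO cells (2.89%) and 39 SYN cells (1.59%), 1.82-fold higher (1.23 to 2.76). Its relatives Igkv4-55 and Igkv4-57 had ratios of 1.77 (1.04 to 3.07) and 1.72 (0.985 to 3.07). Of marginal-zone-rule cells with an assigned kappa segment, 701 in ALLO and 671 in SYN, Igkv4-59 was used by 1.43% and 1.94%. These shares rest on few cells, and whether the classes differed was not tested. Lower in ALLO were Igkv5-48, in 42 and 64 cells (0.606, 0.401 to 0.909), and Igkv17-127, in 54 and 78 cells (0.640, 0.444 to 0.917). The most used segments of each chain had ratios of 0.861 (0.683 to 1.09) for Ighv1-26 and 1.01 (0.810 to 1.27) for Igkv10-96, both intervals including 1.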

How the data were processed

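Raw UMI counts per gene and barcode were deposited unnormalised for 2 spleen libraries. The authors used Cell Ranger 6.0.2 and FastQC on mm10, per the submitters' processing notes. The annotation behind the counts was not stated. Barcodes with at least 1000 UMIs and at most 10% mitochondrial UMIs were kept, 9792 in ALLO and 11198 in SYN. No doublet caller was run, and values without cells in the top 5% of UMIs or with markers of another lineage were the alternative. UMIs of the follicular cells were summed per library and scaled to CPM. Intervals at the 95% level are exact Poisson for CPM, exact conditional for ratios and Clopper-Pearson for shares, for counting error only, and the floor for a count of 0 was 3 UMIs. Genes with at least 50 UMIs over both libraries were described, and 1.5-fold was the limit. With 1 library a group no test was run. Named genes were the 12 highest and 12 lowest by the interval bound nearest to 1 (against other B cells, in the library where it is nearest), and the 10 highest Fano factors by the lower library. Rule genes, antigen receptor segments, mitochondrial, ribosomal protein and predicted genes were left out of these ranks. In lists, 2 to 4 members were named by size, and defining members whatever their values. A chain or segment was assigned to a cell where it reached 3 UMIs and 2 times the runner-up. Thinning to 1000 UMIs used a fixed seed. Germline segments came from GENCODE M21. Other UMI minimums, rules, scalings and thinning depths were tried as alternatives. Python 3.11.15, numpy 2.4.6, scipy 1.17.1, pandas 2.3.3 and matplotlib 3.10.9 were used, and the interval code was tested on simulated data. The members, gene lists and comparisons were chosen with earlier results of these data known. A few genes are not reported here.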

Additional observations from a re-analysis of the deposited data

Results flagged for a closer look

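Some genes moved one way between grafts in follicular cells and the opposite way in another class, with both intervals clear of 1. The difference between the classes was not tested. S100a8 had a ratio of ALLO over SYN of 0.0454 in follicular cells and 2.77 (2.52 to 3.06) in T cells, and S100a9 0.0642 and 2.80 (2.53 to 3.10). Lyz2 had 0.0547 and 2.39 (1.79 to 3.22), Ngp 0.233 and 7.16 (5.47 to 9.50), and Camp 0.226 and 11.0 (7.95 to 15.5). Gzma had 0.331 in follicular cells and 2.05 (1.85 to 2.26) in T cells, and Nrgn, a calmodulin-binding protein, 0.340 and 2.06 (1.52 to 2.83). Hbb-bs ran the other way, at 6.52 in follicular cells, 0.342 (0.257 to 0.451) in T cells and 0.0418 (0.0178 to 0.0842) in B cells without Fcer2a or Ighd. Hba-a1 had 4.17 in follicular cells, 0.221 (0.141 to 0.334) in T cells and 0.0538 (0.0228 to 0.109) in those B cells. These T cell UMIs lay in few cells, those of S100a8 in 0.742% of ALLO and 0.884% of SYN T cells and those of Hbb-bs in 0.270% and 0.344%, which the counting intervals do not cover. Apart from Nrgn these are marker genes of granulocytes, monocytes, cytotoxic or red cells. The 56 SYN follicular UMIs of Nrgn also lay in few cells, 17 in all, and 1 cell held 17 of the UMIs.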

How the results depend on the processing

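No paired analysis was possible because each group is 1 library and the groups share only 1 replicate number. With 1 library per group none could be left out. The share of follicular cells among B cells had ratios of ALLO over SYN between 1.00 and 1.09 under 7 alternatives, and that among kept barcodes was 1.14 with at least 2000 UMIs. Counts of genes past 1.5-fold followed the UMI minimum: 331 higher and 391 lower in ALLO at 20 UMIs, and 42 and 49 at 200. Against other B cells, the numbers higher and lower were 45 and 462 at 20 UMIs and 9 and 78 at 200. Higher genes there numbered 8 with 2 UMIs each of Fcer2a and Ighd, 11 without immunoglobulin, ribosomal protein and mitochondrial genes in the totals and 13 with cells scaled to the same total. Against marginal-zone-rule cells 639 were lower at 20 UMIs, 142 higher and 142 lower at 200, and 215 lower with the rule applied to thinned cells. Immediate early genes past 1.5-fold numbered 3 with 2 UMIs of Fcer2a and Ighd, 2 with the thinned rule (median log2 ratio 0.058), 3 without possible doublets and 2 at 200 UMIs. Interferon genes numbered 8 with the thinned rule, 3 with scaled cells and 2 at 200 UMIs (median 0.24). Sterol genes numbered 7 without possible doublets, 1 at 200 UMIs and 9 with median of ratios scaling, and their median stayed between 0.42 and 0.60. Heat shock genes numbered 4 or 5 under all 12 alternatives. Thinning to 2000 UMIs gave 45 genes with a Fano factor of 1.5 and 132 with 1.2, and 9 of the 10 most spread genes were shared. With 5 UMIs and 5 times the next, lambda cells were 3.94% in ALLO, and by constant genes, an alternative added after seeing the data like leaving out shared barcodes, 90.8% in ALLO and 93.4% in SYN. The cause of these shifts was not tested, except that a UMI minimum changes which genes are described. Log2 ratios of Ddit4 lay between -1.17 and -0.85 and those of Hspa1a between 3.77 and 4.29. Without possible doublets S100a8, S100a9, Lyz2, Ngp, Camp, Gzma, Hbb-bs, Hba-a1, Fcer1g, Cd7, Il7r and Atf3 had fewer than 50 UMIs.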
